A study of Mus musculus with 25 samples.

Results

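The 10 genes described here belong to the bone morphogenetic protein (BMP) pathway. They are the ligand genes Bmp2, Bmp4, Bmp5, Bmp6 and Bmp7, the type I receptor genes Bmpr1a and Bmpr1b, the type II receptor gene Bmpr2, and the target genes Id1 and Id3. They were chosen by name, through the Ensembl gene identifiers of the count matrix, and make up 10 of its 35880 genes. All 10 are protein-coding genes, and their positions are given in GRCm38 from GENCODE M21. They passed the expression filter and were tested among 17657 genes. The RNA-Seq compared mesenchyme, the connective tissue under an epithelium, from 5 tissues of untreated C57Bl/6JOlaHsd mouse embryos without a transgene, with 5 libraries per tissue. They were mammary mesenchyme around the bud (E13.5 MM, here early MM) and around the sprout (E16.5 MM, late MM), the precursor of the mammary fat pad (E16.5 FP, or FP), salivary gland mesenchyme (E13.5 SM, or SM) and ventral skin mesenchyme (E13.5 VM, or VM). By the study's methods, the dissected tissues were treated with enzymes before the mesenchyme was isolated. Each library was a pool of 2 to 3 embryos of a litter, and 3 litters gave the 5 pools of a tissue, so the p-values measure the spread between pools of which some shared a litter. The E16.5 embryos are labelled female and the sex of the E13.5 embryos is given as not applicable, so stage and sex cannot be told apart in comparisons between the stages.

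BMPs are secreted dimers of the TGF-beta superfamily. They bind a complex of type I and type II receptor kinases, which phosphorylates Smad1, Smad5 and Smad9, and these enter the nucleus with Smad4 and activate target genes. Id1 and Id3 are among the most direct of these targets and encode helix-loop-helix proteins without a DNA-binding region, which hold back basic helix-loop-helix transcription factors. In the ventral skin of the embryo, BMP signalling in the mammary mesenchyme acts below parathyroid hormone-related protein and keeps hair follicles out of the nipple skin. In the salivary gland BMPs are known as modifiers of branching, and in precursors of fat cells as signals for commitment.

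Total counts per library were 20678150 to 34448304 (median 26370369). A normalized count below is the deposited count after TMM scaling in edgeR, set to an average library, and every adjusted p is from edgeR's quasi-likelihood test with Benjamini-Hochberg adjustment over all genes tested. A gene is said to be called, higher or lower, if this p was under 0.05, the log2 fold change (log2FC) was 0.58 or more in size and the higher tissue had a mean above 50 normalized counts. SE is the standard error of the log2FC. The lists of markers are given in CPM, counts scaled to a common total, summed over their genes. All 9 mesenchyme markers were detected in each tissue, at 12420 to 44800 CPM summed. Single markers varied between tissues. Vim was higher in FP than in late MM, with means of 54810 and 45930 normalized counts. The other markers were lower there, among them Twist1 (720 against 3723), Twist2 (541 against 3514) and Pdgfra (9180 against 21120). The part of such differences in the levels in FP was not tested. The 5 salivary mesenchyme markers summed to 554 to 626 CPM in SM and to at most 70.9 elsewhere, and the 7 fat pad precursor markers to 1123 to 1916 CPM in FP and at most 426 elsewhere. Of the fat pad markers Adipoq was at 0 in SM. The 6 mammary mesenchyme markers summed to 844 to 1729 CPM in late MM, but in early MM, at 429 to 566 CPM, they overlapped with VM (431 to 511) and SM (385 to 631), so the summed list did not set early MM apart from these tissues. Markers of other cell types were present in every tissue, and some values that moved with a result stand beside it. The 12 skeletal muscle markers summed to 2133 to 20960 CPM in FP and to at most 3427 in the other tissues. Their part in the lower levels of Bmp2, Bmp4, Bmpr1a, Id1, Id3 and the summed ligands in FP was not tested.

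The 5 ligand genes were divided between the tissues. Bmp4 was the ligand with the highest level in ventral skin and early mammary mesenchyme, Bmp7 in salivary mesenchyme, and the summed level of the 5 was lowest in both E16.5 tissues. To compare levels between genes, normalized counts were divided by the length of the gene's exons in kilobases. On this scale the 5 ligands summed to 1078 ± 78.7 in VM, 935 ± 65.1 in SM, 762 ± 85.0 in early MM, 331 ± 57.3 in late MM and 211 ± 31.9 in FP (SD, n = 5 each). Every pool of the E13.5 tissues, at 617 or more, lay above every pool of the E16.5 tissues, at 424 or less. In these bulk samples fewer cells that make a transcript and less of it per cell cannot be told apart, here and for every gene that follows.

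The share of each ligand in that per-kilobase sum also differed between tissues. Bmp4 made up 60.2% ± 5.32 of it in VM and 63.4% ± 4.70 in early MM, but 21.5% ± 3.48 in late MM, 24.2% ± 7.59 in FP and 28.1% ± 2.87 in SM. Bmp2 had the highest share in late MM, where it made up 41.5% ± 3.57, against 17.2% ± 3.10 in early MM. Bmp7 made up 56.1% ± 4.06 in SM and 4.35% ± 0.531 in VM. In the fat pad precursor Bmp7 held 31.9% ± 4.75, Bmp5 26.5% ± 2.93 and Bmp4 24.2% ± 7.59. The share of Bmp6 was highest in FP, at 7.75% ± 0.910, and lowest in early MM, at 1.18% ± 0.323.

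**Figure D1:**
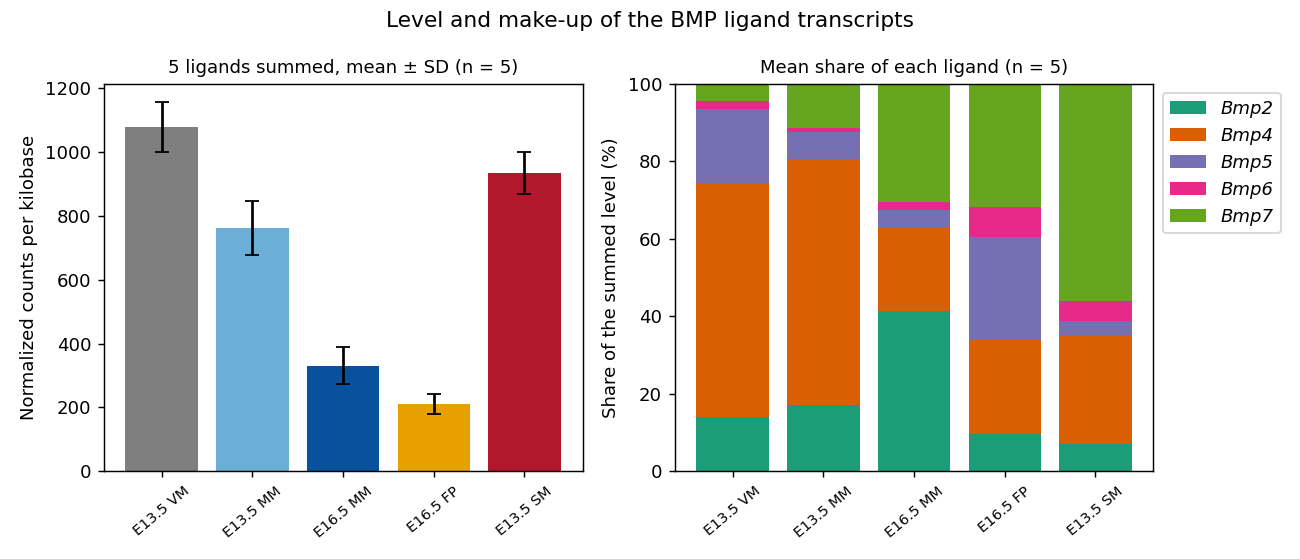
The left panel shows the normalized counts per kilobase of Bmp2, Bmp4, Bmp5, Bmp6 and Bmp7 summed in each tissue as mean ± SD over 5 pools, and the right panel the mean percent of that sum held by each ligand. The sum runs from 211 in E16.5 FP to 1078 in E13.5 VM, with Bmp4 the widest band in E13.5 VM and E13.5 MM, Bmp2 in E16.5 MM, and Bmp7 in E13.5 SM and E16.5 FP.

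Bmp4 (ENSMUSG00000021835, chromosome 14, 46383520 to 46390669) encodes a ligand with wide roles in the mesoderm and in the budding of skin appendages. Its normalized counts in replicates 1 to 5 were 1404, 1279, 1507, 1596 and 1487 in VM and 792, 1169.7, 1127, 1107 and 1259 in early MM. They were 135, 176, 169, 120.1 and 193 in late MM, 158, 158, 75.1, 141 and 58.1 in FP and 589, 697, 584, 594 and 494 in SM. The early skin and mammary pools were thus the highest, the salivary pools lay between, and the pools of both E16.5 tissues overlapped at the bottom. From early MM to late MM Bmp4 fell, with a log2FC of -2.78 (SE 0.201, adjusted p = 7.30e-11), from 1091 ± 177 to 159 ± 30.2 normalized counts (SD, n = 5 each). FP lay lower than early MM, with a log2FC of -3.20 (SE 0.206, adjusted p = 2.88e-12). Against SM, Bmp4 was higher in early MM, with a log2FC of 0.88 (SE 0.185, adjusted p = 0.000223), and lower in late MM, with one of -1.90 (SE 0.198, adjusted p = 9.81e-09), and all pools lay apart in both. VM and early MM did not pass the test (adjusted p = 0.138) although no pool of the one reached the range of the other, and late MM and FP did not pass either (adjusted p = 0.120).

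Bmp5 (ENSMUSG00000032179, chromosome 9, 75775364 to 75900310), which encodes a ligand of the Bmp7 subgroup known from skeletal patterning and the short ear mutant, was highest in ventral skin. Its normalized counts were 594, 1216, 657, 882 and 817 in VM and 219, 159, 321, 196 and 149 in early MM. In late MM they were 56.1, 70.7, 64.8, 60.1 and 39.2, in FP 184, 274, 205, 246 and 210.1 and in SM 236, 126, 121, 126 and 54.6. Every VM pool lay above every other pool, and late MM had the lowest mean of the 5 tissues. The log2FC of early MM against VM was -2.0 (SE 0.268, adjusted p = 6.27e-06), and that of late MM against early MM was -1.84 (SE 0.290, adjusted p = 1.35e-05), without overlap of the pools in either. FP was higher than late MM by 3.86-fold, with a log2FC of 1.95 (SE 0.291, adjusted p = 1.03e-05), but did not differ from early MM at the threshold (adjusted p = 0.758). Skeletal muscle markers moved with FP, in which the 12 of them summed to 13990, 20960, 13050, 12390 and 2133 CPM in replicates 1 to 5, against 794 to 3427 CPM in late MM and 641 or less in the E13.5 tissues. Replicate 2, the highest in muscle markers, had the highest Bmp5 count of FP, and replicate 5, the lowest in them, the middle one, and the part of muscle in the result was not tested.

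Against SM the Bmp5 calls were weaker, and the pools overlapped in each of the 3. Early MM had a log2FC of 0.65 (SE 0.270, adjusted p = 0.0414), FP one of 0.75 (SE 0.271, adjusted p = 0.0161) and late MM one of -1.20 (SE 0.291, adjusted p = 0.000934). The SM pools ranged from 54.6 in replicate 5 to 236 in replicate 1, the replicate that also held the most skeletal muscle marker RNA of that tissue (641 CPM against 108 to 186 in the others), whose part in the result was not tested. The call of early MM over SM was lost without early MM replicate 1, 3 or 4 and without SM replicate 2, 3, 4 or 5, with adjusted p-values of 0.0505 to 0.165. Without SM replicate 5 the log2FC of FP against SM was 0.56 (adjusted p = 0.0403), under the size that a call needs. Of the 31-base words of the Bmp5 transcripts 46.2% also occur on the opposite strand in those of Gm26903, an antisense gene with no row in the count table, and since the use of strand in counting is not stated, reads of both cannot be told apart.

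**Figure D2:**
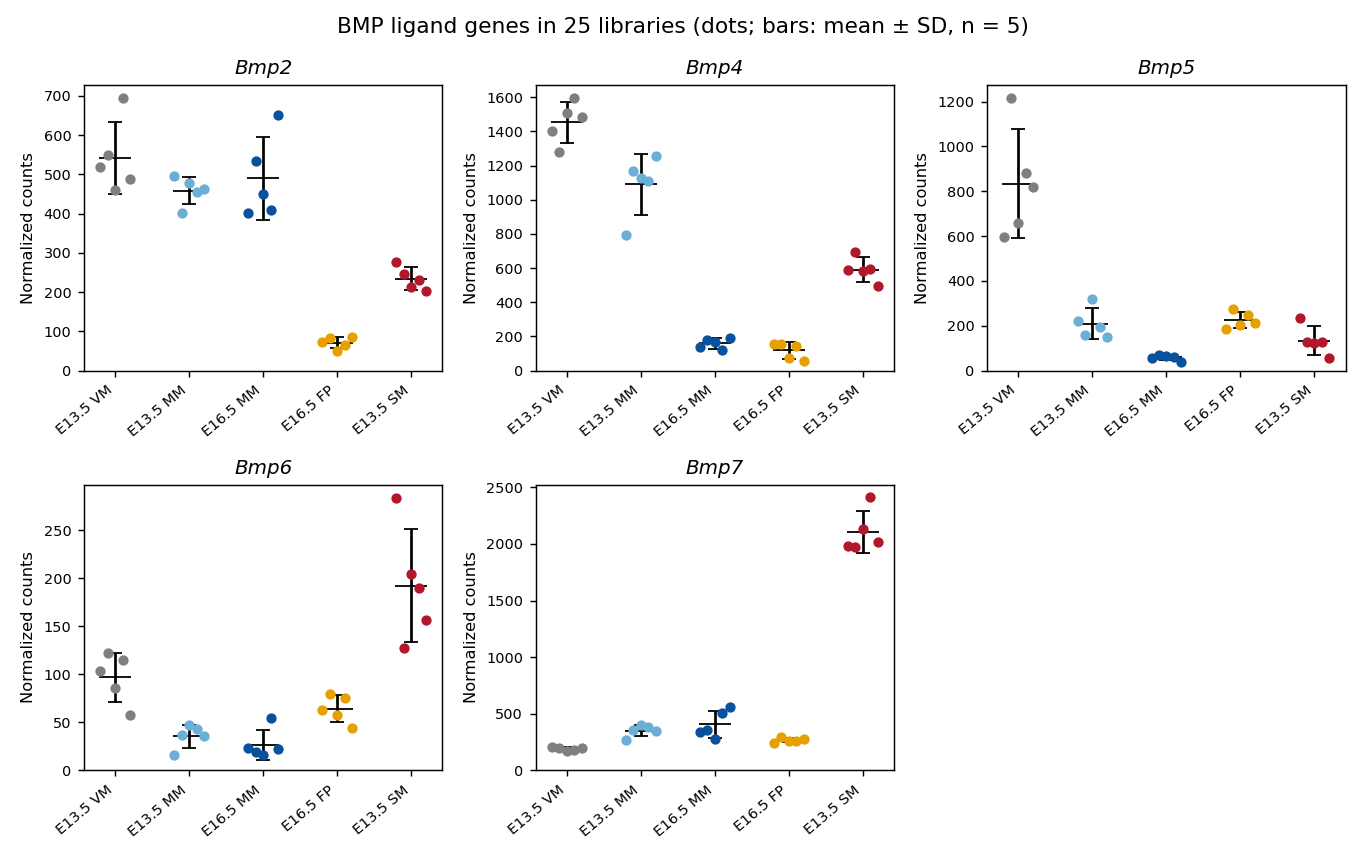
Each panel shows the normalized counts of a ligand gene in the 5 pools of each tissue as dots, with the mean ± SD as a line and bar on a linear axis from 0. Bmp4 is high in E13.5 VM and E13.5 MM and at 193 or less in the E16.5 tissues, Bmp5 stands apart in E13.5 VM, and Bmp7 at 1977 or more in E13.5 SM.

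Bmp4 and Bmp5 were the members called lower in late MM than in early MM, and the 250 bases before their transcription starts are shown for that reason. The sequences are from RefSeq (GRCm38.p6, printed 5′ to 3′ on the strand of the gene), which has an entry for 7 of the 10 members, not for Bmp2, Bmp7 or Id1. Bmp4 is on the minus strand, and its window is chr14:46390670-46390919. Bmp5 is on the plus strand, and its window, chr9:75775115-75775364, ends on the base at which the GENCODE M21 gene starts. Capitals mark 3 motifs searched on both strands: the GC-rich Smad box GGCGCC, the Smad box CAGAC or its reverse GTCTG, and the E-box CANNTG.
Bmp4: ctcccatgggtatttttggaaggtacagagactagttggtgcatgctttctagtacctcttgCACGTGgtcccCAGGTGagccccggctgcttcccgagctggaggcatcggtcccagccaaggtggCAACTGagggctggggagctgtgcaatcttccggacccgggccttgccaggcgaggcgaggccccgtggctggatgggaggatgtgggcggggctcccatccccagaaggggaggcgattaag
Bmp5: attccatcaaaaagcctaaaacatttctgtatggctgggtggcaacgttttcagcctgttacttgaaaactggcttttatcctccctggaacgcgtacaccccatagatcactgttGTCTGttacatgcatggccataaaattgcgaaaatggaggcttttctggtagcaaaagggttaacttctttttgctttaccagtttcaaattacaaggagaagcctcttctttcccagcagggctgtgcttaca
The Bmp4 window has 63.2% GC and holds 3 E-boxes (the capitals above) and no Smad box of either form. The Bmp5 window has 42.8% GC and holds the Smad box GTCTG, at 134 to 130 bases before the start, and no E-box or GC-rich box. Over all 32851 promoter windows of the same length, 9.59% held GGCGCC, 42.2% held CAGAC or GTCTG and 66.2% held CANNTG, and the median GC content was 52.4%. The matches describe these letters only.

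Bmp2 (ENSMUSG00000027358, chromosome 2, 133552159 to 133562885) encodes a ligand close in sequence to the Bmp4 product. In normalized counts it was at 518, 549, 460.2, 695 and 489 in VM, 496, 402, 477, 455 and 463 in early MM and 401, 534, 450.3, 410.0 and 652 in late MM. It was at 72.2, 83.2, 51.0, 65.2 and 84.5 in FP and 276, 246, 212, 232 and 204 in SM. The ventral skin pools and the mammary pools of both stages overlapped, the salivary pools lay below all of them, and the fat pad pools lay below the salivary pools. In FP Bmp2 was 6.83-fold lower than in late MM of the same stage, with a log2FC of -2.77 (SE 0.153, adjusted p = 2.83e-13), and in early MM it was 1.96-fold higher than in SM, with one of 0.97 (SE 0.139, adjusted p = 1.36e-06). Late MM against SM had a log2FC of 1.07 (SE 0.139, adjusted p = 2.91e-07). Between the stages of mammary mesenchyme the log2FC was 0.10 (SE 0.136, adjusted p = 0.582), which did not pass the test. The 14 epithelial markers summed to 129, 36.4, 19.3, 71.4 and 107 CPM in late MM replicates 1 to 5. In any other library they summed to at most 52.3 CPM, so late MM replicates 2 and 3 lay within that range. Their part in the Bmp2 level was not tested. Late MM replicate 1, with the highest sum, had the lowest Bmp2 count of the 5 late MM pools, and replicate 5 the highest. Epcam, one of these markers, was highest in SM, with a mean of 456 normalized counts against 146 in late MM.

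Bmp7 (ENSMUSG00000008999, chromosome 2, 172868012 to 172940321), whose product is known from kidney and eye development and from salivary branching, was the ligand with the highest level in salivary mesenchyme. Its normalized counts in SM were 1979, 1977, 2137, 2412 and 2014. In VM they were 202, 197, 169, 175 and 195, in early MM 271, 352, 402, 379 and 343, in late MM 340.3, 356, 277, 509 and 557 and in FP 242, 293, 260.2, 258 and 277. The salivary pools started at 1977 and no other pool exceeded 557, and the ventral skin pools were the lowest. The log2FCs against SM were -2.59 (SE 0.141, adjusted p = 4.66e-14) in early MM, -2.36 (SE 0.140, adjusted p = 1.58e-13) in late MM and -2.98 (SE 0.145, adjusted p = 2.66e-15) in FP. Among the other tissues, early MM was higher than VM by 1.87-fold, with a log2FC of 0.90 (SE 0.140, adjusted p = 3.76e-05) and no overlap of the pools. FP was lower than late MM, with a log2FC of -0.62 (SE 0.139, adjusted p = 0.000968), but the pools overlapped and the log2FC was -0.55 without late MM replicate 4 and -0.48 without replicate 5, under the size that a call needs.

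Bmp6 (ENSMUSG00000039004, chromosome 13, 38345107 to 38500302) encodes another ligand of the Bmp7 subgroup, known from the control of iron through hepcidin. Per kilobase its level was the lowest of the 5 ligands in 4 tissues, and in SM, where it was highest, it lay above that of Bmp5. Its normalized counts were 284, 127, 205, 189.6 and 157 in SM and 103, 122, 86.2, 115 and 57.2 in VM. In FP they were 63.3, 79.3, 57.7, 75.6 and 44.3, in early MM 15.8, 37.3, 46.8, 43.0 and 35.3 and in late MM 22.9, 19.2, 15.6, 54.3 and 22.1. The salivary pools lay above all others, and both mammary tissues had the lowest means, with overlapping pools and replicate 4 of late MM above the other 4. The log2FCs against SM were -2.42 (SE 0.308, adjusted p = 2.27e-07) in early MM, -2.84 (SE 0.319, adjusted p = 2.49e-08) in late MM and -1.58 (SE 0.297, adjusted p = 4.37e-05) in FP. Early MM was also lower than VM, with a log2FC of -1.43 (SE 0.304, adjusted p = 0.00141), without overlap. FP was higher than late MM, with a log2FC of 1.25 (SE 0.317, adjusted p = 0.00284), and than early MM, with one of 0.84 (SE 0.306, adjusted p = 0.0241), with overlapping pools in both, and the second call was lost without early MM replicate 1 (adjusted p = 0.0669) or FP replicate 2 (adjusted p = 0.056). Neither is a call if the mean of both tissues, in place of that of the higher one, must exceed 50 normalized counts. Replicate 2 of FP, with the most skeletal muscle marker RNA (20960 CPM), had its highest Bmp6 count and replicate 5, with the least (2133 CPM), its lowest, and the part of muscle was not tested. Exons of Bmp6 overlap on the opposite strand with Txndc5, which had 162815 counts over the 25 libraries against 2157 of Bmp6, and 5.09% of the 31-base words of Bmp6 were shared with that strand.

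The 3 receptor genes varied less between the tissues than any of the ligand genes, and Bmpr1b varied the most of the 3. Between the highest and the lowest tissue mean there was a ratio of 1.61 for Bmpr1a and 1.84 for Bmpr2, against 5.97 for Bmpr1b and 7.18 to 14.3 for the 5 ligands. Bmpr1a (ENSMUSG00000021796, chromosome 14, 34410734 to 34503341) encodes the type I receptor that most tissues use, and it made up nearly all of the type I receptor transcripts per kilobase. Its normalized counts were 10094 to 11927 in early MM, 9019 to 10689 in SM, 7825 to 10580.5 in late MM, 7739 to 9357 in VM and 6233 to 7354 in FP. The pools of the first 4 of these tissues overlapped in a chain, and those of FP lay below all others. Bmpr1a was called in 1 of the 7 comparisons, lower in FP than in early MM with a log2FC of -0.69 (SE 0.0782, adjusted p = 4.80e-08). FP was also below SM and late MM past the adjusted p, with log2FCs of -0.56 (SE 0.0781, adjusted p = 7.18e-07) and -0.51 (SE 0.0781, adjusted p = 1.12e-05), sizes just under the 0.58 that a call needs. Without FP replicate 2 or SM replicate 4 the first was called (-0.60 and -0.59), as it was with no expression filter (-0.61), and without late MM replicate 4 so was the second (-0.59). Exons of Bmpr1a overlap on the opposite strand with Gm17110, an antisense gene with no row in the count table. Of the 31-base words of Bmpr1a 4.08% were shared with that strand.

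Bmpr1b (ENSMUSG00000052430, chromosome 3, 141837136 to 142169425) encodes the other type I receptor, known from cartilage and limb. In SM its normalized counts were 596, 427, 524, 451 and 722, and in FP 238, 388, 205, 181 and 132. They were 141, 143, 169, 156 and 182 in VM, 106, 74.5, 119.9, 97.0 and 97.1 in early MM and 107, 82.6, 93.7, 92.4 and 80.5 in late MM. The salivary pools lay above all others, and the pools of both mammary tissues overlapped and were the lowest. The log2FCs against SM were -2.46 (SE 0.208, adjusted p = 1.82e-10) in early MM, -2.58 (SE 0.210, adjusted p = 7.42e-11) in late MM and -1.25 (SE 0.198, adjusted p = 4.53e-06) in FP. The fat pad precursor was higher than both mammary tissues, with log2FCs of 1.21 (SE 0.204, adjusted p = 1.77e-05) against early MM and 1.33 (SE 0.207, adjusted p = 1.41e-05) against late MM. Replicate 2 of FP, the highest in skeletal muscle markers (20960 CPM), also had the highest Bmpr1b count of that tissue, and replicate 5 (2133 CPM) the lowest of both, and the part of muscle in the result was not tested. The log2FC of early MM against VM was -0.68 (SE 0.204, adjusted p = 0.0225), and this call was lost without VM replicate 5 or without early MM replicate 2, 4 or 5, with adjusted p-values of 0.055 to 0.0858.

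The mix of type I receptors per kilobase followed from these values. Bmpr1b made up 5.58% ± 0.866 of Bmpr1a and Bmpr1b together in SM, 3.48% ± 1.16 in FP and 1.95% ± 0.301 in VM. It made up 0.987% ± 0.199 in early MM and 1.03% ± 0.197 in late MM (SD, n = 5 each). The lowest salivary pool, at 4.46%, lay above every pool of the other tissues except FP, whose highest pool was at 5.33%.

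Bmpr2 (ENSMUSG00000067336, chromosome 1, 59763400 to 59879014) encodes the type II receptor of BMPs and growth differentiation factors. Its normalized counts were 6413 to 8992 in SM, 4609.6 to 7821 in late MM, 4477 to 6897 in FP, 4624 to 7099 in VM and 4126 to 4940.3 in early MM. All salivary pools lay above all early MM pools, while the other 3 tissues overlapped with both. The log2FC of early MM against SM was -0.88 (SE 0.133, adjusted p = 3.04e-06), its 1 call in the 7 comparisons. Late MM and FP were also below SM past the adjusted p, with log2FCs of -0.40 (adjusted p = 0.00977) and -0.56 (adjusted p = 0.000614), under the size that a call needs. VM against SM, outside the 7, was called, at -0.62 (adjusted p = 0.000239). Late MM lay above early MM by 0.48 (adjusted p = 0.00401). FP was called lower than SM without FP replicate 2 (-0.65) or SM replicate 2 (-0.63) and with no expression filter (-0.61), and late MM higher than early MM without late MM replicate 4 (0.60). Neighbours in the order late MM, FP, VM and early MM did not pass the test. Peripheral neuron markers moved with SM, where the 10 of them summed to 329 to 423 CPM against at most 30.6 CPM in any other library, and their part in the higher levels of Bmp6, Bmp7, Bmpr1b and Bmpr2 in SM was not tested. The epithelial marker Epcam was highest in SM as well, with a mean of 456 normalized counts against 146 in late MM. The part of epithelial cells in these levels was not tested either.

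**Figure D3:**
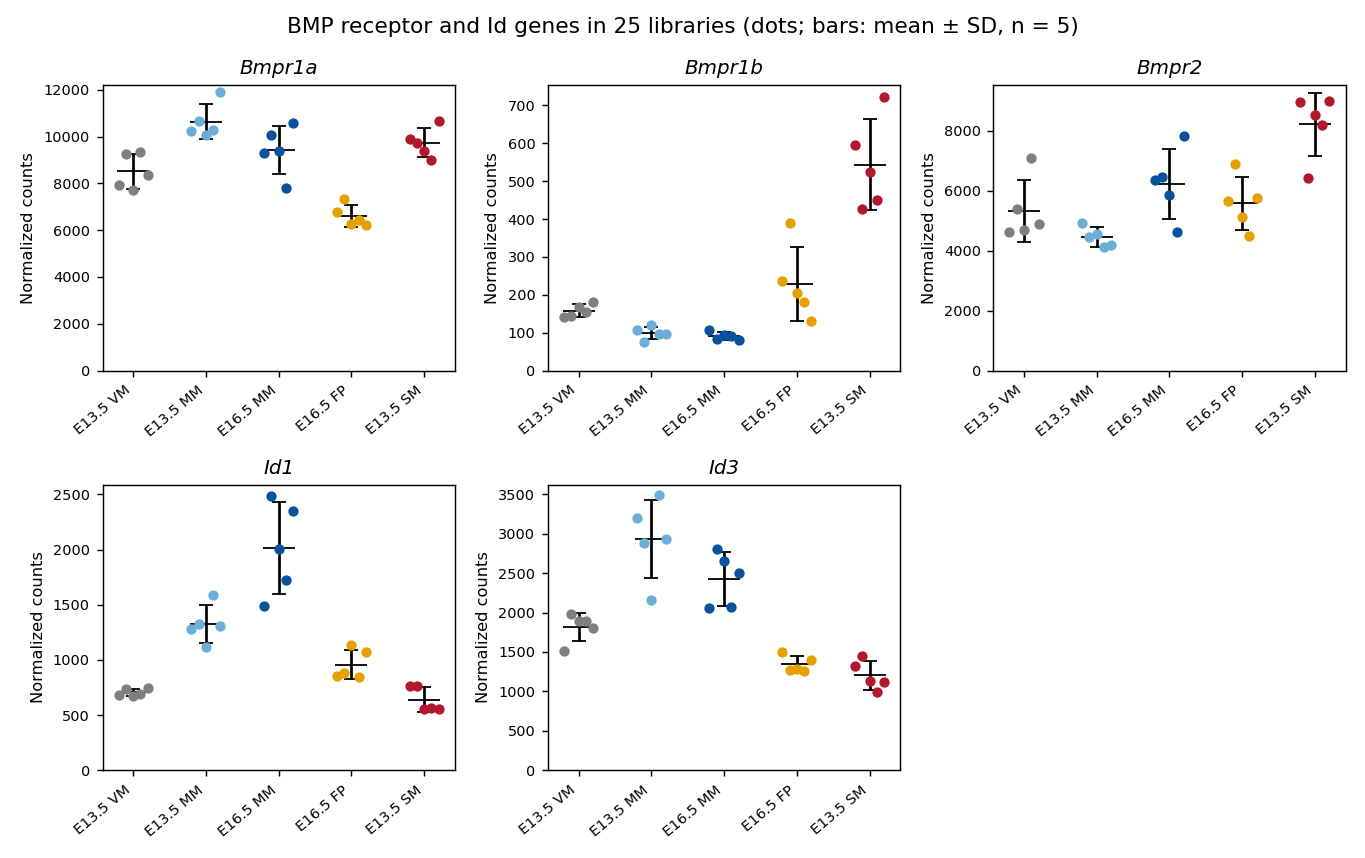
Each panel shows the normalized counts of a receptor or Id gene in the 5 pools of each tissue as dots, with the mean ± SD as a line and bar on a linear axis from 0. Bmpr1b is highest in E13.5 SM, where its pools start at 427, and the lowest E16.5 MM pool of Id1, at 1493, lies above all pools of E13.5 VM, E16.5 FP and E13.5 SM.

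The target genes Id1 and Id3 were higher in the mammary mesenchyme of both stages than in salivary mesenchyme, whereas the ligand transcripts per kilobase summed to more in SM than in early MM. Id1 (ENSMUSG00000042745, chromosome 2, 152736251 to 152737410), in normalized counts, was at 1279, 1326, 1121, 1591 and 1305 in early MM and 1493, 2491, 2008, 1726 and 2347 in late MM. It was at 681, 738, 677, 688 and 742 in VM, 857, 879.8, 1132, 848 and 1074 in FP and 765, 760.0, 558, 568 and 553 in SM. The late MM pools were the highest on average and overlapped with early MM alone, and VM overlapped with SM. Against SM the log2FC was 1.05 (SE 0.129, adjusted p = 1.41e-07) in early MM and 1.65 (SE 0.131, adjusted p = 4.32e-11) in late MM. Early MM was 1.88-fold higher than VM, with a log2FC of 0.91 (SE 0.129, adjusted p = 9.98e-06), and FP was 2.10-fold lower than late MM, with one of -1.07 (SE 0.129, adjusted p = 3.31e-07). From early MM to late MM Id1 rose, with a log2FC of 0.60 (SE 0.127, adjusted p = 0.000364), but it was 0.53 to 0.55 without early MM replicate 3 or without late MM replicate 2 or 5, and then not called. FP against SM, with a log2FC of 0.58 (SE 0.129, adjusted p = 0.000320), lay just under the size that a call needs, and was called higher with the Wald test or the size factors of DESeq2 and in a fit of those 2 tissues (log2FC 0.61 in each), with a replicate block (0.58), and without FP replicate 1, 2 or 4 or SM replicate 1 or 2 (0.61 to 0.65).

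Id3 (ENSMUSG00000007872, chromosome 4, 136143497 to 136145755) had another order. Its normalized counts were 3199, 2882, 2164, 3495 and 2931 in early MM, 2059, 2808, 2657, 2069.8 and 2507 in late MM and 1517, 1982, 1886, 1886 and 1809 in VM. They were 1504, 1271, 1279.8, 1260.0 and 1393 in FP and 1317, 1454, 1138, 987 and 1122 in SM. The pools of both mammary tissues lay above all pools of the other 3 tissues, and FP and SM overlapped at the bottom. The log2FCs against SM were 1.29 (SE 0.118, adjusted p = 7.89e-10) in early MM, 1.01 (SE 0.117, adjusted p = 4.39e-08) in late MM and 0.16 (SE 0.117, adjusted p = 0.232) in FP. Early MM was higher than VM, with a log2FC of 0.69 (SE 0.116, adjusted p = 9.48e-05). FP was lower than early MM, with a log2FC of -1.13 (SE 0.117, adjusted p = 9.79e-09), and than late MM, with one of -0.85 (SE 0.117, adjusted p = 2.51e-06). Between the mammary stages Id3 had a log2FC of -0.28 (SE 0.116, adjusted p = 0.0487), which is not a call.

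Per kilobase, the mean share of Id1 in Id1 and Id3 together was larger in both E16.5 tissues than in the E13.5 tissues. Its share was 37.6% ± 2.25 in VM, 41.2% ± 2.23 in early MM and 45.1% ± 2.02 in SM, and it was 56.0% ± 2.63 in late MM and 52.3% ± 4.07 in FP. Every late MM pool, at 52.8% or more, lay above every E13.5 pool, at 47.3% or less, whereas the lowest FP pool, at 46.8%, overlapped with SM (43.1% to 47.3%). Endothelial cells also express Id1 and Id3, and the 12 endothelial markers were lowest in SM, at 516 to 586 CPM. They summed to 751 to 839 CPM in VM, 801 to 991 in early MM, 1019 to 1228 in late MM and 1241 to 1525 in FP. Leukocyte markers, 7 genes, summed to 45.6 to 59.0 CPM in SM, 138 to 191 in the other E13.5 tissues and 313 to 383 in the E16.5 tissues. FP, with the most endothelial RNA, had lower Id1 and Id3 than late MM, and the part of these cells in the Id levels was not tested.

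Taken over the 10 genes, the calls in each comparison were as follows, with the percent of all 17657 genes called in the same direction. In early MM against SM, 5 members were higher (Bmp2, Bmp4, Bmp5, Id1 and Id3), where 14.5% of all genes were, and 4 were lower (Bmp6, Bmp7, Bmpr1b and Bmpr2), where 15.6% were. In late MM against SM, 3 were higher (background 18.5%) and 5 lower (16.6%), with Bmp4 and Bmp5 now among the lower. For FP against SM, 1 was higher (background 20.2%) and 5 were lower (19.3%), and the total of 6 ranged from 5 to 9 when 1 library was left out, with 9 without FP replicate 2. It was 8, with 7 lower, with no expression filter. These 3 comparisons share the SM libraries, so their values are not independent. The median size of the members' log2FCs was 1.01, 1.42 and 1.0 in them, against 0.50, 0.57 and 0.65 over all genes.

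For early MM against VM, the closest pair of tissues in the number of genes called, 3 members were higher (Bmp7, Id1 and Id3), where 3.79% of all genes were, and 3 were lower (Bmp5, Bmp6 and Bmpr1b), where 2.66% were. The median size of the members' log2FCs was 0.68 there, and that of all genes 0.18. From early MM to late MM, 1 rose (Id1, background 12.6%) and 2 fell (Bmp4 and Bmp5, background 7.16%), and here the median size of the members, 0.35, was no larger than that of all genes, 0.37. The early MM libraries are likewise shared by 4 of the 7 comparisons. In FP against early MM, 2 members were higher (Bmp6 and Bmpr1b, background 14.3%) and 4 lower (Bmp2, Bmp4, Bmpr1a and Id3, background 11.2%). In FP against late MM, 3 were higher (Bmp5, Bmp6 and Bmpr1b, background 6.78%) and 4 lower (Bmp2, Bmp7, Id1 and Id3, background 7.34%), with a median size of 0.96 against 0.25 over all genes. Without FP replicate 5, the pool poor in muscle RNA, the members called numbered 6 against SM, 6 against early MM and 7 against late MM.

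Another 3 pairs served for the order of the tissues. VM against SM had 4 members higher (background 14.7%) and 4 lower (15.6%), and late MM against VM had 2 higher (13.7%) and 4 lower (9.55%). FP against VM had 0 members called higher (15.0%) and 3 lower (12.4%) by edgeR. At an unadjusted p under 0.05 it had 3 higher (Bmp7, Bmpr1b and Id1). These also passed the adjusted p, but their log2FCs were under the size that a call needs. They were 0.51 (adjusted p = 0.00364), 0.53 (adjusted p = 0.0255) and 0.44 (adjusted p = 0.00507). Bmpr1a and Id3 were lower in the same way, with log2FCs of -0.37 (adjusted p = 0.000275) and -0.44 (adjusted p = 0.0024). No other tool was run for this pair.

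**Figure D4:**
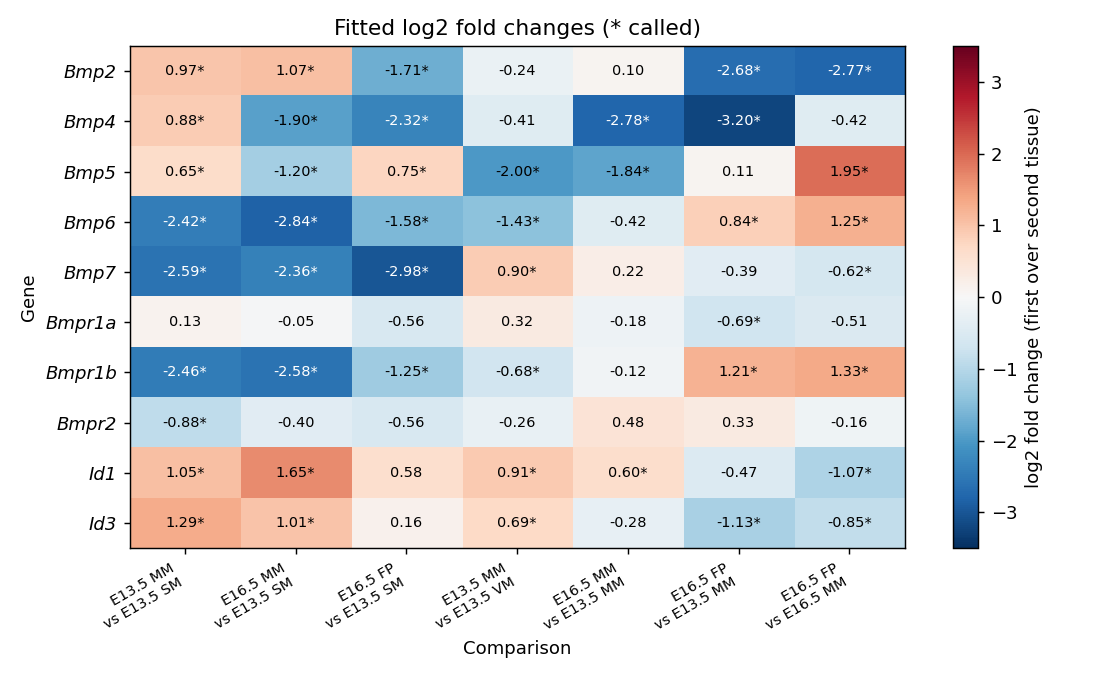
The grid gives the fitted log2 fold change (log2FC) of each of the 10 genes (rows) in the 7 comparisons (columns), the first tissue over the second, with red for higher, blue for lower and an asterisk for a call. Bmp6, Bmp7 and Bmpr1b are lower in the 3 comparisons with E13.5 SM, and the column of E16.5 MM against E13.5 MM holds 3 calls, Bmp4 at -2.78, Bmp5 at -1.84 and Id1 at 0.60.

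The rest of the pathway was counted in lists, which were chosen with earlier results of these data known. Of 12 other target genes of BMP signalling, 6 were higher and 1 lower in early MM than in SM, and 9 and 1 in late MM, with median log2FCs of 1.74 and 2.47 (0.03 and -0.01 over all genes tested). Of all genes 14.5% were higher and 15.6% lower in the first of these comparisons and 18.5% and 16.6% in the second. From early MM to late MM 8 rose and 1 fell (12.6% and 7.16% of all genes). In FP against late MM, 8 were lower (7.34% of all genes) and 0 higher (6.78%) by edgeR, with 0 also at an unadjusted p under 0.05 and with DESeq2. Tbx3, one of the 12, is also among the mammary mesenchyme markers. Epithelial markers summed to 19.3 to 129 CPM in late MM and to at most 52.3 CPM in any other library. Their part in these counts was not tested. Sp7, a transcription factor gene of bone-forming cells, had 199 ± 36.0 normalized counts in late MM and 55.1 ± 10.9 in early MM, a log2FC of 1.85 (SE 0.220, adjusted p = 1.82e-07). Gata2, which encodes a zinc finger transcription factor also used by blood and endothelial cells, did not share the fall in FP. Its log2FC in FP against late MM was 0.08 (SE 0.174, adjusted p = 0.786). Against SM it had a log2FC of 3.63 (SE 0.204, adjusted p = 6.04e-14) in late MM and of 3.71 (SE 0.2045, adjusted p = 3.3e-14) in FP. Dlx5, a homeobox gene of the jaw, went the other way with 112 ± 8.11 normalized counts in SM and 1.65 ± 1.27 in early MM. Its log2FC was -5.96 (SE 0.644, adjusted p = 1.49e-08).

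Of 20 antagonists and ligand-processing proteins tested, 9 were higher and 3 lower in early MM than in SM (14.5% and 15.6% of all genes), 10 and 3 in late MM (18.5% and 16.6%), and 7 and 5 in FP (20.2% and 19.3%). The counts of lower genes were thus near what the shares of all genes give for 20. Grem1, which encodes the secreted BMP antagonist gremlin, had 3801 ± 434 normalized counts in VM, 3679 ± 747 in early MM, 318 ± 109 in late MM, 49.2 ± 19.97 in FP and 26.8 ± 15.8 in SM. Early MM did not differ from VM at the threshold, with a log2FC of -0.05 (SE 0.245, adjusted p = 0.944). Against SM the log2FC of early MM was 7.10 (SE 0.347, adjusted p = 6.84e-14), and from early MM to late MM it fell, with one of -3.54 (SE 0.276, adjusted p = 6.84e-10). Bmper, whose product binds BMPs outside the cell, rose over the same interval, with a log2FC of 3.31 (SE 0.219, adjusted p = 2.10e-11), and was highest in FP with 3377 ± 902 normalized counts against 35.2 ± 5.19 in SM. Chrdl1, which encodes a chordin-like antagonist, had 2013 ± 364 normalized counts in SM, 2300.0 ± 435 in FP and 99.5 ± 20.7 in early MM, a log2FC of -4.33 (SE 0.197, adjusted p = 3.12e-15) for early MM against SM.

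Of 8 other BMP-type ligands tested, 3 were higher and 2 lower in late MM than in SM (18.5% and 16.6% of all genes). From early MM to late MM 2 rose (12.6%) and 0 fell (7.16%) by edgeR (1 lower at an unadjusted p under 0.05, 0 with DESeq2). Gdf7, a ligand gene known from the spinal cord and tendon, had 258 ± 79.1 normalized counts in late MM, 23.9 ± 12.01 in early MM and 3.41 ± 1.44 in FP, with a log2FC of 3.44 (SE 0.332, adjusted p = 6.09e-09) between the mammary stages. SM held 1.92 ± 1.54 normalized counts of it, and the log2FC of late MM against SM was 7.0 (SE 0.435, adjusted p = 3.81e-13). Bmp3, which encodes a ligand that holds back other BMPs, rose between the mammary stages as well, with one of 1.79 (SE 0.230, adjusted p = 7.80e-07). Gdf10, its close relative, was higher than in SM in FP, with one of 2.13 (SE 0.221, adjusted p = 1.07e-08). It was also higher in early MM (log2FC 1.55, adjusted p = 1.72e-06) and late MM (log2FC 2.01, adjusted p = 3.19e-08). FP and late MM did not differ in Gdf10 at the threshold (adjusted p = 0.742). The fall of Bmp4 and Bmp5 in late MM thus stood beside a rise of Gdf7 and Bmp3 in the same libraries.

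Of 9 other receptors and co-receptors tested, 1 was higher and 3 lower in early MM than in SM (14.5% and 15.6% of all genes), and 3 and 3 in late MM (18.5% and 16.6%). The co-receptor genes Rgmb and Rgma were lower, with log2FCs in late MM of -2.02 (SE 0.169, adjusted p = 2.00e-10) and -1.39 (SE 0.143, adjusted p = 5.46e-09). Acvrl1, which encodes a type I receptor of endothelial cells, was higher, with one of 1.28 (SE 0.0738, adjusted p = 8.61e-14). Late MM also had more endothelial marker RNA than SM, and its part in the Acvrl1 level was not tested. Of 10 Smad genes and Smad regulators, 2 were higher and 2 lower in early MM than in SM, near the 14.5% and 15.6% of all genes. In FP against SM 4 were lower (19.3% of all genes) and 0 higher (20.2%) by edgeR, with 0 also at an unadjusted p under 0.05 and with DESeq2. Smad9, which encodes a Smad of the BMP branch, was higher in early MM than in VM, with 114 ± 20.1 against 34.7 ± 6.78 normalized counts and a log2FC of 1.72 (SE 0.218, adjusted p = 2.08e-06). Smad7, an inhibitor of Smad signalling, was lower in FP than in late MM, with a log2FC of -0.93 (SE 0.0918, adjusted p = 1.11e-08). The ubiquitin ligase gene Smurf1 was lower in early MM than in SM, with one of -1.16 (SE 0.0724, adjusted p = 5.84e-13). It was likewise lower than in SM in late MM (log2FC -1.16, adjusted p = 4.67e-13) and FP (log2FC -1.31, adjusted p = 3.52e-14).

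Within a tissue, some members varied together between pools. Over the 25 libraries, with each tissue's mean subtracted from log2 CPM, the correlation was 0.70 for Id1 and Id3, 0.66 for Bmpr1a and Bmpr2, 0.63 for Bmp2 and Bmpr2 and 0.54 for Bmp6 and Bmp7. The lowest was -0.40, for Bmp7 and Id3. The points share pools, dissections and scaling, so these values are a description of the libraries.

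The genes whose pattern was most like that of a member were found by the root mean square difference of log2 CPM over the 25 libraries, each gene centred on its own mean, among 13639 genes. Bmp2 was closest to Cacna1d, a calcium channel gene, and Twist1, a transcription factor gene of mesenchyme, with differences of 0.32 and 0.33. For Bmp4 they were Igfbp2 and Flrt3, at 0.49 and 0.50, for Bmp5 Cemip and Sytl2, at 0.63 each, and for Bmp6 Ric3 and Dlgap1, at 0.45 and 0.47. Bmp7 was closest to Gpm6b and Srgap3, at 0.33 and 0.37, and Bmpr1b to Ebf3 and Zim1, at 0.34 and 0.41. For Id1 they were Hspa2 and Slc27a6, both at 0.29, and for Id3 Sec61b and Pheta2, at 0.20 and 0.21. The own spread of these members about their means, on the same scale, was 0.52 for Id3, 0.63 for Id1 and 0.96 to 1.51 for the others of them. Bmpr1a and Bmpr2, whose tissue means spanned less than 1 log2 unit, were not compared in this way. Exons of Cacna1d, Ric3, Dlgap1, Srgap3, Ebf3 and Pheta2, and of Acvrl1 and Rgma named above, overlap with those of other genes, so their counts are less certain.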

How the data were processed

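The 25 libraries are RNA-Seq of embryonic mouse mesenchyme, grouped by tissue and stage as their labels state. The deposited values are estimated counts per gene, which the authors made with Salmon 0.99.0 on mm10 after trimming with Trimmomatic 0.39 and removal of ribosomal reads. They are whole numbers as deposited. The annotation release and the use of strand are not given in the sources used here, and reads that overlapping genes share make counts uncertain. The 446 genes without a symbol in the table of names held 0.103% of all counts. Total counts of 20678150 to 34448304 per library set the precision.

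Counts were scaled with TMM factors (0.923 to 1.09). The test was the quasi-likelihood one of edgeR 4.0.16 (R 4.3.3), fitted over all libraries, with 1 mean per tissue, robust dispersion (common value 0.0433) and Benjamini-Hochberg adjustment over the 17657 genes that edgeR's filter kept. The p and size thresholds of the calls are those of the study's methods, which used DESeq2. Those methods ask for an average count above a minimum, which was put here on the mean of the higher tissue, and on the mean of both tissues as a setting chosen after seeing the data. SE was taken as the size of log2FC over the root of F. The fit was tested on simulated data. Python 3.11.15 was used for tables (pandas 2.3.3, numpy 2.4.6) and plots (matplotlib 3.10.9). Exon lengths came from GENCODE M21, and the 31-base words shared between transcripts were counted in its sequences.

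The members, the gene lists and the marker lists were chosen with earlier results of these data known. Besides the members, up to 3 genes were named per pathway list, the called genes with the largest log2 fold change among those with a mean normalized count above 100, and for each member whose tissue means span at least 1 log2 unit the 2 genes most like it. Other settings tried were the Wald test and the size factors of DESeq2 1.42.0, dropping the expression filter, fitting the 2 tissues of a pair by themselves, a block for replicate number, leaving out single libraries, and calling by the adjusted p alone.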

Additional observations from a re-analysis of the deposited data

Results flagged for a closer look

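Of 50 groups of 5 pools, 1 per member and tissue, 1 held a pool far from the others. Bmp6 in late MM had 54.28 normalized counts in replicate 4, and the next highest pool had 22.91. The gap was 0.811 of the group's range, against a critical value of 0.71, and chance alone marks about 1 in 20 such groups. The call of Bmp6 as lower in late MM than in SM held without this pool.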

How the results depend on the processing

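The 45 log2FCs of members that were called were recomputed under the other settings, which gave 720 values. In 696 they kept direction and call, in 24 the call was lost, 19 of them with 1 library left out, and in 0 the direction turned. The other 5 losses were Bmp6 in FP against early MM and against late MM when the mean of both tissues had to exceed 50, a setting chosen after seeing the data, and Bmp5 in early MM against SM (adjusted p = 0.0824 with no expression filter and 0.0965 in a fit of those 2 tissues) and Id1 in late MM against early MM (log2FC 0.57 with no filter). None of the 50 tissue means moved by over 1 SD with the size factors of DESeq2. With the adjusted p alone as the call, 10781 genes were called in early MM against SM, 12019 in late MM and 12653 in FP against the same tissue, 2747 in early MM against VM, 8720.0 in late MM and 9353 in FP against early MM, and 5960.0 in FP against late MM, since the size and level thresholds were dropped. The members called were then 9, 9, 9, 7, 5, 9 and 8 in the order of the 7 comparisons, against 9, 8, 6, 6, 3, 6 and 7 with the thresholds. Calls gained in FP against SM were Bmpr1a and Bmpr2 with no expression filter (8 members) and Id1 with either use of DESeq2 or in a fit of those 2 tissues (7 members). When 1 library was left out, the members called ranged from 8 to 9 in early MM, 8 in each case in late MM and 5 to 9 in FP against SM, 5 to 6 in early MM against VM, 2 to 4 in late MM and 5 to 6 in FP against early MM, and 6 to 7 in FP against late MM.

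A pairing of the tissues by replicate number was not seen. Deviations of pools with the same number correlated at -0.628 to 0.45, and in no comparison did all 5 pairs exceed 0.1. Pools of different tissues that share a litter under other numbers would not show in these values. With a replicate block the members called were 9, 8, 7, 6, 3, 6 and 7 in the same order, against 9, 8, 6, 6, 3, 6 and 7 without it, and the added call was Id1 in FP against SM (log2FC 0.58, adjusted p = 0.000611). With a block, 1125 genes were called in early MM against VM.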
